A study of Mus musculus with 4 samples.

Results

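The imprinted Dlk1-Dio3 domain on distal mouse chromosome 12 ends in a dense run of microRNA hairpins around the non-coding gene Mirg, and the results below describe the mature miRNAs of that run in mouse liver. Members were chosen by name: every row for the 5p or 3p arm of 34 listed hairpin names from miR-299a to miR-3072, leaving out the interleaved or adjoining miR-379, miR-411 and miR-376 hairpins. The rule found 66 of the 1907 mature miRNAs measured, the 5p and 3p arms of 33 hairpins. The listed miR-453 has a row without an arm in its name, which the rule does not take and which held 0 counts. All 4 libraries were small RNA libraries from livers of C57BL/6 mice aged 15 weeks. In 2 of them the mice were controls, and in the other 2 they had received thioacetamide (TAA) intraperitoneally at 200 mg/kg, 3 times a week for 10 weeks. TAA is a hepatotoxin that induces liver fibrosis in rodents, and the labels do not say what the controls were given. The design text calls the libraries biological replicates without naming animals, so p-values measure the spread between these libraries only.

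The Dlk1-Dio3 domain carries protein-coding genes expressed from the paternal allele and non-coding RNAs (Meg3, Rian, Mirg) expressed from the maternal allele. The miRNAs of its distal cluster are processed from long maternal transcripts and are abundant in embryo, placenta and brain, with low levels in most adult tissues. In neonatal mice the cluster is needed for the metabolic adaptation of the liver at birth. In neurons, transcription of the cluster is induced by activity through Mef2, and miR-134 is known for limiting dendritic spine size through Limk1. miR-485 is known from synaptic regulation. A mature miRNA recognises its targets mainly through its seed, bases 2 to 8 from its 5′ end, so members with different seeds have mostly different predicted targets.

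The 9 members below are those that reached a group mean of 10 CPM (counts scaled to library size, defined with the depth below) in controls or TAA-treated liver, so the measured response of the cluster rests mainly on them. Except for miR-541-5p, they reached 10 CPM only in TAA-treated liver. RefSeq (GRCm38.p6) held the mature sequence of 63 of the 66 members. The mature sequences are given 5′ to 3′ with the seed in capitals, and all lie on the plus strand of chromosome 12.
miR-541-5p: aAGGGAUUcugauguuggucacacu
miR-381-3p: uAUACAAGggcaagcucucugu
miR-300-3p: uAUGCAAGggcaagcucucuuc
miR-409-3p: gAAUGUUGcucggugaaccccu
miR-409-5p: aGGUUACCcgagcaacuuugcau
miR-410-3p: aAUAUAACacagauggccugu
miR-134-5p: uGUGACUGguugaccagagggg
miR-299a-3p: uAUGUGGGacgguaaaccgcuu
miR-485-3p: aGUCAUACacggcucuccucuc

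miR-300-3p and miR-381-3p are the most alike of these in the printed sequences. They were identical at 19 of 22 bases, and counted from the 5′ end of miR-300-3p the differences are G4A, U21G and C22U, the first of them inside the seed. Their hairpins are shown to place the arms, which are in capitals with the 5p arm first, because in both only the 3p arm was recovered in quantity.
miR-300 hairpin: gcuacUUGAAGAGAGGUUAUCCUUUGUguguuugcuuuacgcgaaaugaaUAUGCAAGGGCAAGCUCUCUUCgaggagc
miR-381 hairpin: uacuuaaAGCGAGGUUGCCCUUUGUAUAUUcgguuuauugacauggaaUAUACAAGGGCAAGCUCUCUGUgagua
The hairpin of miR-541, the most abundant member, gave nearly all of its reads from the 5p arm.
miR-541 hairpin: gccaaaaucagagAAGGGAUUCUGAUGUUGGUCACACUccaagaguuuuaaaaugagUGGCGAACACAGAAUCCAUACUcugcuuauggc

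The members had few seeds in common. The 37 tested members with a RefSeq sequence had 37 different seeds, so none of these shared its seed with another of them. miR-485-5p and miR-487b-3p were tested too, but had no sequence there to compare. The letters ACACGG occurred in 4 of the 63 member sequences and in 3 of the 1616 other mature sequences. This was 0.417% of all mature sequences in the table, searched on the miRNA strand only, as mature RNAs have 1 strand. Those 4 members are printed here with the motif in capitals, because it begins at base 7 in 3 of them and at base 9 in the fourth.
miR-154-3p: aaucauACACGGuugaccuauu
miR-323-3p: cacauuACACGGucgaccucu
miR-485-3p: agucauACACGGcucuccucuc
miR-494-3p: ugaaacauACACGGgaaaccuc
The motif was chosen after the sequences were seen, and the match describes letters, not a site. The letters GGUUG, also chosen after the sequences were seen, occurred in 11 of the 63 members (17.5%). They occurred in 41 of the 1616 others (2.54%), and in 3.10% of all sequences in the table. Several of those 11 members were not tested, and miR-1197-5p, miR-410-5p and miR-758-5p had 0 counts in all libraries.

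The 33 hairpins occupied 37.3 kb, from 109710638 to 109747960 of chromosome 12 (GRCm38, GENCODE M21). Of these, 20 lay outside annotated genes on their strand, and 13 lay in Mirg, which GENCODE places from 109729764 to 109749460. Within Mirg, 4 hairpins lay within an annotated exon (miR-134, miR-485, miR-377 and miR-410), 5 overlapped an exon in part, and 4 were intronic (miR-154, miR-496a, miR-541 and miR-409). The miR-299b hairpin is on the minus strand, antisense to miR-299a. The mature sequences of both its arms are contained in those of miR-299a, so reads of miR-299a and miR-299b cannot be fully told apart, and the miR-299b rows held at most 5 counts.

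Total miRNA counts were 42609845 for control 1, 46224018 for control 2, 43836911 for TAA 1 and 48878003 for TAA 2. Each count was divided by the library total times a trimmed mean of M values (TMM) factor to give CPM, so that 1 CPM stood for 42.3 to 51.3 counts. CPM are not divided by length, and member sequences are 18 to 25 bases long. Liver identity was checked on 4 hepatocyte miRNAs, among them miR-122-5p at 17376 to 21608 CPM, and none of the 4 passed the test described below. Replicate libraries differed by more than read-sampling noise.

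The Mirg-side miRNAs rose together in TAA-treated liver. Their counts made up 0.00502% (95% Wilson interval 0.00481% to 0.00523%) of miRNA counts in control 1 and 0.00721% (0.00697% to 0.00746%) in control 2. They made up 0.113% (0.112% to 0.114%) in TAA 1 and 0.0832% (0.0824% to 0.0840%) in TAA 2. Both TAA libraries thus lay far above both controls, with TAA 1 above TAA 2 and control 2 above control 1 by more than counting error, the only error these intervals cover. The ratio of the group means was 16.0, and it lay between 13.6 and 19.5 when any 1 library was left out. As these are bulk samples, more cells of a type that makes these miRNAs and more miRNA per cell cannot be told apart.

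Of the 66 members, 39 passed the filter on low counts and were tested with edgeR's quasi-likelihood test over all 644 miRNAs kept, with Benjamini-Hochberg adjustment over all of them. Of the 39, 36 rose, 0 fell and 3 did not pass, where rose means an adjusted p under 0.05. Over all tested miRNAs 14.0% rose and 2.64% fell by the same rule, and outside the Dlk1-Dio3 lists 4.86% of 576 rose. The median log2 fold change of the 39 was 3.77, or 13.7-fold, beside -0.0042 over all tested miRNAs. Under every normalization tried at least 36 members rose. The libraries decided more: without TAA 1, 22 rose, and without TAA 2, 24 rose. Without control 1, 35 rose, 33 of them among the 36, and without control 2, 36 rose, again with 33 among the 36.

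The filter itself favours members that are high in TAA-treated liver. Only 14 of the 39 reached 10 counts in both controls. The other 25 needed at least 1 TAA library to pass the filter. Among those 25 it favoured members that are higher there, so their count is no support. The 14 all rose, with log2 fold changes from 1.96 to 4.05 and a median of 3.77. With no filter, 55 members had at least 1 count and 40 of them rose, beside 8.36% of the 1256 miRNAs with a count.

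**Figure D1:**
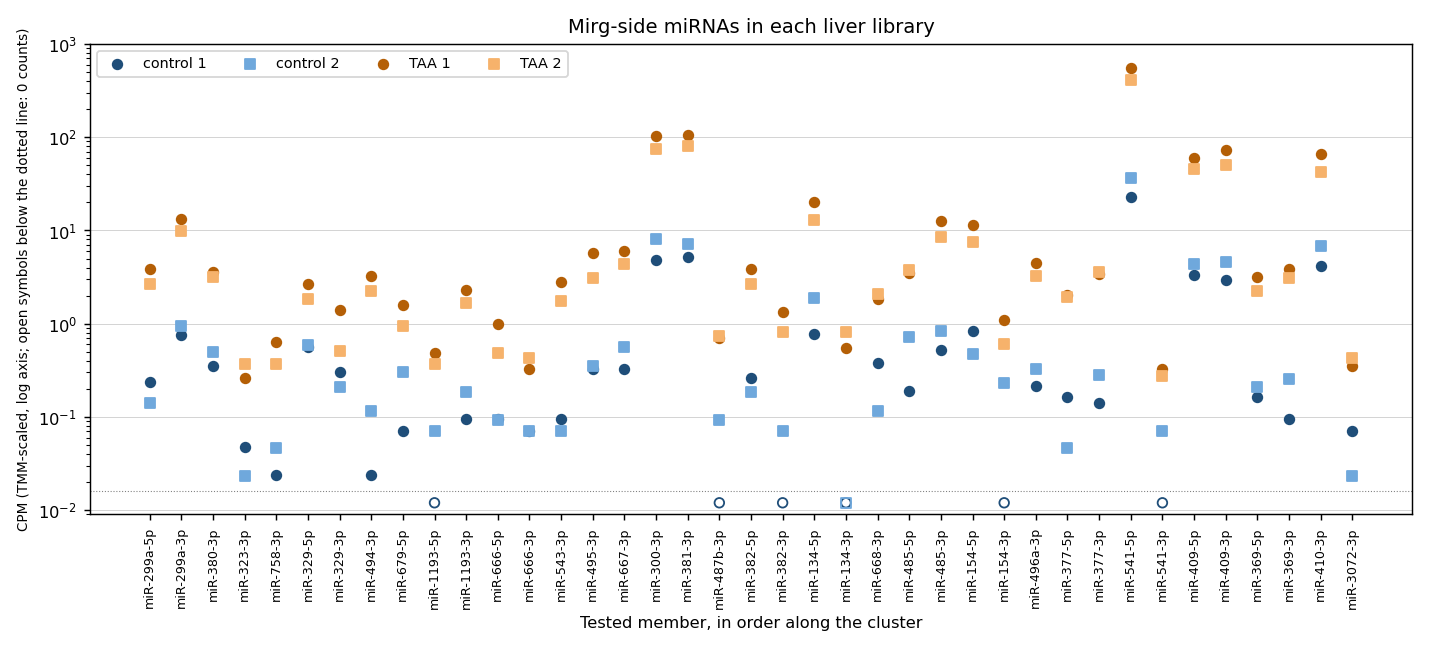
CPM (log axis) of the 39 tested members in each library, ordered by hairpin position along the cluster; circles are replicate 1, squares replicate 2, and open symbols below the dotted line mark 0 counts. Both TAA libraries sit above both controls for each of the 39 members (29.7% of all tested miRNAs), with miR-541-5p highest at 554 and 410 CPM in TAA 1 and TAA 2. Of the 39, 25 needed a TAA library to pass the filter, which favours such members.

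miR-541-5p, from an intron of Mirg (mature sequence at chr12:109742422-109742446), was the most abundant member in all libraries. It had 959 and 1579 counts in control 1 and control 2, and 25170 and 21040 in TAA 1 and TAA 2. In CPM these were 22.7 and 36.9 against 554 and 410, so that the lower TAA library lay well above the higher control. It rose from 29.8 ± 10.1 to 482 ± 102 CPM (SD, n = 2 in each group), a log2 fold change of 4.02 (SE 0.27, edgeR adjusted p = 3.22e-05). This 1 miRNA held 44.9% and 47.4% of the cluster's counts in the controls and 51.0% and 51.7% in the TAA libraries.

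The pair of similar 3p miRNAs came next. miR-381-3p (chr12:109726870-109726891, upstream of Mirg and outside annotated genes) measured 5.20 and 7.13 CPM in control 1 and control 2 and 105 and 79.7 CPM in TAA 1 and TAA 2, and its log2 fold change was 3.91 (SE 0.24, edgeR adjusted p = 2.01e-05). miR-300-3p (chr12:109724363-109724384, also upstream of Mirg) measured 4.84 and 8.07 CPM in the controls and 102 and 74.7 CPM in TAA 1 and TAA 2, with a log2 fold change of 3.77 (SE 0.29, edgeR adjusted p = 5.04e-05). In neither did the groups overlap. The count of miR-300-3p was 0.932 and 1.13 times that of miR-381-3p in the controls and 0.969 and 0.937 times in the TAA libraries. The ratio therefore overlapped between the groups, and the paralogs kept nearly equal levels in each library. Because they differ at 3 bases, G4A among them, truncated or mismatched reads could be shared between their rows, and the mismatch setting of the alignment is not stated.

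Both arms of the miR-409 hairpin, intronic in Mirg, were recovered at similar levels. miR-409-3p (chr12:109743204-109743225) had 2.95 and 4.54 CPM in the controls and 73.7 and 50.7 CPM in TAA 1 and TAA 2, a log2 fold change of 4.05 (SE 0.29, edgeR adjusted p = 3.62e-05). miR-409-5p (chr12:109743172-109743194) had 3.33 and 4.35 CPM in the controls and 60.3 and 45.1 CPM in TAA 1 and TAA 2, a log2 fold change of 3.78 (SE 0.24, edgeR adjusted p = 2.14e-05). For both arms the TAA libraries were the high ones, without overlap. The 3p arm had 0.887 and 1.04 times the counts of the 5p arm in the controls and 1.22 and 1.12 times in the TAA libraries.

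miR-410-3p (chr12:109743764-109743784), whose hairpin lies within an exon of Mirg, had the smallest change of the 9 more abundant members. It measured 4.13 and 6.78 CPM in the controls and 66.4 and 42.1 CPM in TAA 1 and TAA 2, a log2 fold change of 3.31 (SE 0.31, edgeR adjusted p = 0.00013). The groups did not overlap. Its share of the cluster's counts was 8.19% and 8.70% in the controls and 6.11% and 5.32% in the TAA libraries. miR-541-5p had 5.48 and 5.44 times the counts of miR-410-3p in the controls and 8.35 and 9.73 times in TAA 1 and TAA 2. The 2 groups did not overlap in this ratio, which was set out after the values were seen and was not tested.

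**Figure D2:**
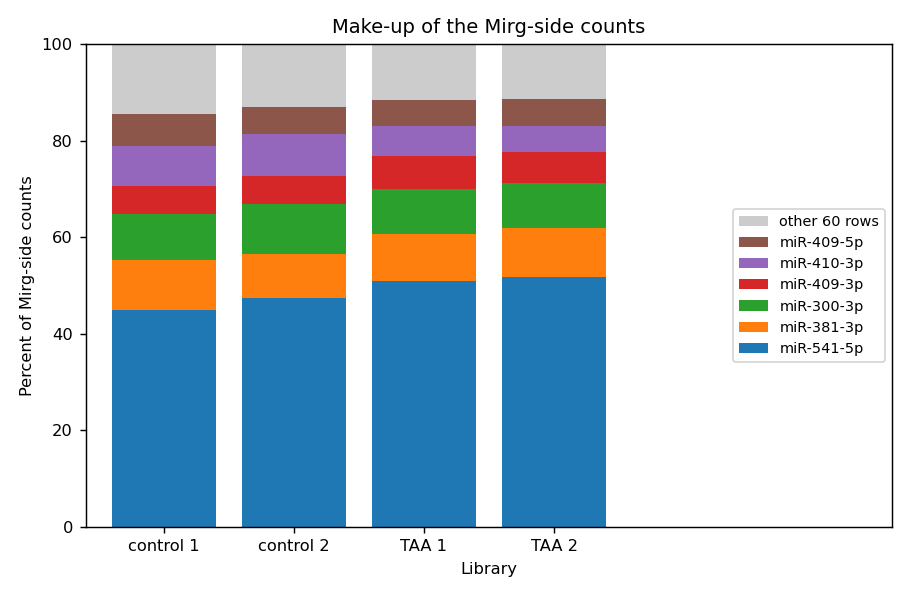
Percent of all Mirg-side counts held by the 6 most abundant members and by the other 60 rows, in each library. The 6 together held 85.4% and 87.0% in the controls and 88.5% and 88.6% in the TAA libraries, with miR-541-5p the largest part of every bar.

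The neuronal members were measured at lower levels. miR-134-5p (chr12:109734145-109734166, in an exon of Mirg), the Limk1 regulator, had 33 and 81 counts in control 1 and control 2 and 913 and 659 in TAA 1 and TAA 2. That is 0.780 and 1.89 CPM against 20.1 and 12.8 CPM, with no overlap and a wide gap between the controls. Its log2 fold change was 3.62 (SE 0.41, edgeR adjusted p = 0.000355). The size of this change rested on the controls, and was 3.10 without control 1 and 4.39 without control 2, passing in both. miR-485-3p (chr12:109734946-109734967, in an exon of Mirg) had 22 and 36 counts in control 1 and control 2 and 574 and 436 in TAA 1 and TAA 2, a log2 fold change of 3.95 (SE 0.32, edgeR adjusted p = 6.1e-05). miR-299a-3p (chr12:109710676-109710697), from the hairpin at the start of the run, had 32 and 40 counts in control 1 and control 2 and 606 and 508 in TAA 1 and TAA 2, a log2 fold change of 3.77 (SE 0.26, edgeR adjusted p = 3.31e-05). All 3 were high in both TAA libraries and low in both controls.

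The 9 members lay within a narrow band, with log2 fold changes from 3.31 to 4.05. Only miR-541-5p reached 10 CPM in the controls, and the others met this cut through the TAA libraries. For those the cut itself leaves out small changes, so the narrow band is no support. The levels of all 9 differed between libraries of the same group as well. All 9 were higher in TAA 1 than in TAA 2, by 1.32 to 1.57 times, and all 9 were higher in control 2 than in control 1, by 1.24 to 2.43 times. The medians of these ratios were 1.37 and 1.62. Over 263 other miRNAs of at least 10 CPM the same medians were 1.02 and 0.996. These 9 members therefore differed between replicates in the same sense, and they are not 9 separate observations of the effect. Over all 39 tested members, 31 were higher in TAA 1 than in TAA 2 and 27 higher in control 2 than in control 1.

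The 3 tested members that did not pass were miR-329-3p, miR-154-3p and miR-541-3p. All had low counts.
miR-329-3p: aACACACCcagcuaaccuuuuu
miR-541-3p: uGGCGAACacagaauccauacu
miR-329-3p had 13 and 9 counts in control 1 and control 2 and 64 and 26 in TAA 1 and TAA 2, with a log2 fold change of 1.87 (SE 0.60, edgeR adjusted p = 0.0773). This value was 0.96 without TAA 1. miR-154-3p, printed above for its motif, had 0 and 10 counts in control 1 and control 2 and 50 and 31 in TAA 1 and TAA 2, with a log2 fold change of 2.83 (SE 0.89, edgeR adjusted p = 0.0732). Without control 1 its log2 fold change was 1.83 and it passed. Without control 2 it passed too, but the remaining control had 0 counts, so the fitted fold is not given. miR-541-3p, the minor arm of the most abundant hairpin, had 0 and 3 counts in control 1 and control 2 and 15 and 14 in TAA 1 and TAA 2. Its pooled ratio was 8.50, with a 95% counting interval of 2.63 to 43.6 (edgeR adjusted p = 0.0625). In each of the 3 both TAA libraries were above both controls, as in 29.7% of all tested miRNAs. None of the 3 reached 10 counts in both controls. The filter thus favoured higher TAA values for them, and this separation is no support. The adjusted p of miR-329-3p ranged from 0.00362 to 0.589 over the alternatives, that of miR-154-3p from 8.85e-07 to 0.549 and that of miR-541-3p from 0.0174 to 0.427.

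The remaining 27 tested members were recovered at 0.317 to 9.44 CPM in TAA-treated liver (group means). All 27 passed as higher, most of them having needed a TAA library to pass the filter. Among those with control counts, log2 fold changes ran from 1.96 to 5.24. Both ends of that range, chosen after their values were seen, came from hairpins upstream of Mirg. miR-329-5p, the other arm of miR-329, had 24 and 25 counts in control 1 and control 2 and 121 and 95 in TAA 1 and TAA 2 (edgeR adjusted p = 0.00454, with a log2 fold change of 1.96 and an SE of 0.34). It did not pass without TAA 1. Both arms of miR-329 thus had the lowest fold changes among the tested members. miR-494-3p had 1 and 5 counts in control 1 and control 2 and 149 and 115 in TAA 1 and TAA 2 (edgeR adjusted p = 0.00022, with a log2 fold change of 5.24 and an SE of 0.55). miR-134-3p, the minor arm of miR-134, had 0 counts in both controls and 25 and 42 in TAA 1 and TAA 2. It passed (edgeR adjusted p = 0.0023), but not without TAA 1 or without TAA 2.

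Of the 27 members that were not tested, 11 had 0 counts in all 4 libraries, among them both arms of miR-654. The other 16 never exceeded 9 counts in a library, and together they had 10 counts in the controls and 96 in the TAA libraries. miR-543-5p, chosen after its values were seen, had 0 counts in both controls and 9 in each TAA library. A count of 0 allows up to 0.0585 to 0.0709 CPM in a library, so arms at 0 were not detectable at this depth.

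**Figure D3:**
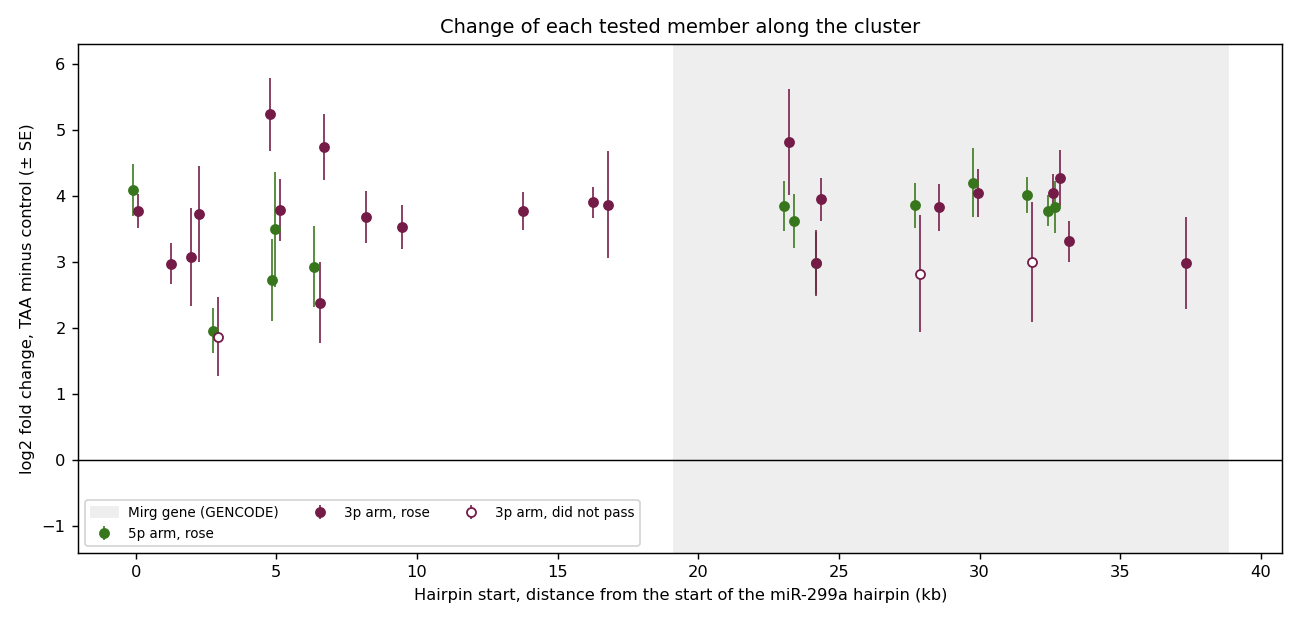
Log2 fold change (TAA minus control, ± SE) of the 38 tested members with control counts against the distance of the hairpin from the start of the miR-299a hairpin; the grey area is Mirg, and open symbols did not pass. Values lie between 1.87 and 5.24 along the whole run, and the lowest pair is miR-329. Most of these members needed a TAA library to pass the filter, so the range is description only.

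Members on both sides of the Mirg start rose. The 20 hairpins upstream of Mirg gave 19 tested members, 18 of which rose, and the median of the 19 log2 fold changes was 3.68. The 13 hairpins in Mirg gave 20 tested members, of which 18 rose, and their median was 3.84. By the same rule 14.0% of all tested miRNAs rose. On both sides most tested members needed a TAA library to pass the filter, so these counts and medians are description only. Inside Mirg, the 13 tested members from hairpins that lie in or overlap exons had a median of 3.84, and the 7 from intronic hairpins 3.83. The summed level of the upstream members was 13.6 and 19.6 CPM in the controls and 258 and 190 CPM in the TAA libraries. That of the Mirg members was 36.9 and 58.4 CPM in the controls and 828 and 603 CPM in the TAA libraries, most of it from miR-541-5p. No difference along the run was tested.

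No change in arm use passed the test, and most hairpins kept their larger arm. Among 21 hairpins with at least 10 counts in the controls and 20 in the TAA libraries, the same arm dominated in both groups in 19. In TAA-treated liver the 3p arm dominated in 14 of the 21 and the 5p arm in 7. In miR-541 the 5p arm made up 99.9% of counts in both groups, and in miR-300 it made up 0.901% of control counts and 0.130% of those after TAA. The 2 hairpins whose larger arm changed were miR-409 and miR-369, which had nearly equal arms. miR-369 had 51.6% of its counts on the 5p arm in the controls and 43.9% in TAA-treated liver.

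The ratio of 5p to 3p counts was tested with limma over the 150 hairpins whose arms each averaged 20 or more counts, 8 of them from this run. Of the 8, 0 changed (0 also at an unadjusted p under 0.05), and 0% of all 150 changed (5 at an unadjusted p under 0.05). In miR-409, which had the most counts of the 8, the log2 ratio was 0.17 and -0.06 in the controls and -0.29 and -0.17 in the TAA libraries, a difference of -0.29 (SE 0.19, limma adjusted p = 0.985). In miR-154 the controls themselves ran from 6.15 to 0.97 on the log2 scale, with 0 and 10 counts on the 3p arm. Leaving out control 1 or control 2 gave 4 changed hairpins of the 8 in each case, and 8 and 11 of all 150, with the spread then taken from the TAA libraries alone. The miR-154 difference was 2.52 without control 1 and -2.66 without control 2, so the arm ratios of low-count hairpins rest on single control libraries.

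**Figure D4:**
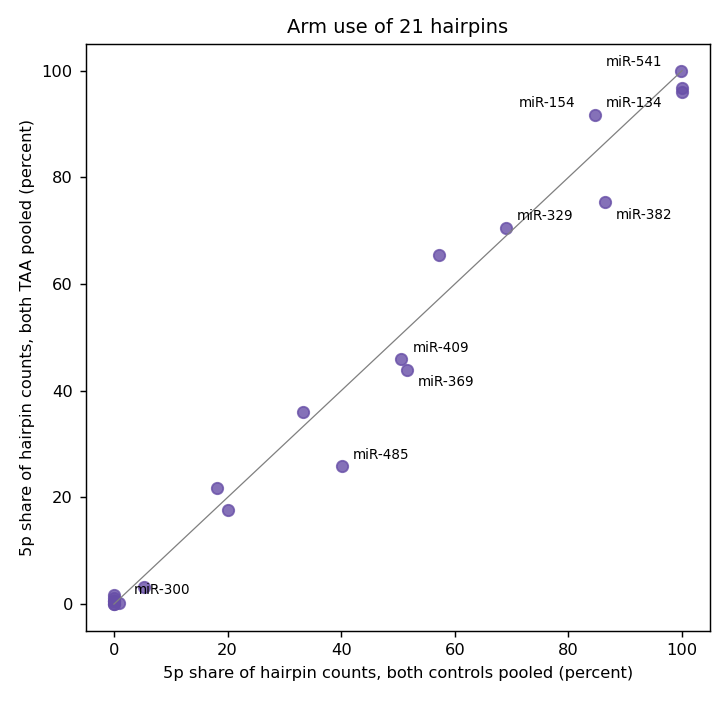
Percent of hairpin counts from the 5p arm, pooled over the 2 controls (x axis) and the 2 TAA libraries (y axis), for the 21 hairpins with at least 10 control and 20 TAA counts; the line marks equal use. Points lie near the line at both ends, miR-541 at 99.9% in both groups, and miR-485 is farthest below it at 40.2% against 25.8%.

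Some members share a seed with miRNAs that are not members, and the levels of those were read in the same libraries. Of the 37 tested members with a sequence, 8 had such a partner, among them miR-1193-5p and miR-1193-3p, whose partners lie in the Dlk1-Dio3 domain too. The partners of the more abundant miR-410-3p and of miR-329-3p, which did not pass, are shown for their shared seeds.
miR-362-3p: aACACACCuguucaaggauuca
miR-344d-3p: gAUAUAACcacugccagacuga
miR-362-3p, encoded on chromosome X, has the seed of miR-329-3p. It had 806 and 1014 counts in control 1 and control 2 and 987 and 921 in TAA 1 and TAA 2, and did not pass (edgeR adjusted p = 0.815, with a log2 fold change of -0.11 and an SE of 0.20). The groups overlapped. miR-329-3p had 0.0161 and 0.00888 times the counts of miR-362-3p in the controls and 0.0648 and 0.0282 times in the TAA libraries, so most reads with this seed came from miR-362-3p in both groups. The seed of miR-410-3p is shared by miR-344d-3p, encoded on chromosome 7, which had 3 and 1 counts in control 1 and control 2 and 19 and 17 in TAA 1 and TAA 2 (edgeR adjusted p = 0.0249, with a log2 fold change of 2.92 and an SE of 0.71). It is outside the Dlk1-Dio3 domain and rose too, at counts far below those of miR-410-3p in every library. Like many members, it passed the filter only through the TAA libraries. miR-1193-5p shares its seed with miR-379-5p of the same domain, and the latter was the more abundant, at 94 and 109 counts in control 1 and control 2 and 1365 and 1087 in TAA 1 and TAA 2. miR-370-5p, which shares its seed with miR-1193-3p, had 0 and 2 counts in control liver and 12 and 11 in TAA 1 and TAA 2, and did not pass (edgeR adjusted p = 0.0586). miR-672-5p, with the seed of miR-377-5p, had 7 and 14 counts in control liver and 2 and 11 in TAA 1 and TAA 2, and did not pass (edgeR adjusted p = 0.539, with a log2 fold change of -0.88). Of these partners miR-379-5p and miR-344d-3p rose and none fell. The negative log2 fold changes of miR-362-3p and miR-672-5p did not pass, so no opposite direction is shown. The partners of miR-134-3p, miR-495-3p and miR-679-5p had 0 counts in all libraries.

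The rest of the domain was read from name lists. The 42 rows of its other listed miRNAs gave 29 tested, of which 26 rose and 0 fell. The 29 log2 fold changes had a median of 3.42. Over all tested miRNAs 14.0% rose, and outside the Dlk1-Dio3 lists 4.86%. Here too some rows were low in the controls and passed the filter through the TAA libraries. All 4 arms of miR-379 and miR-411 rose (median 3.57), as did 5 of 5 tested arms of the miR-376 family (median 3.07). Of the miRNAs antisense to Rtl1, 8 of 9 tested rose (median 3.36), and of the isolated proximal hairpins 9 of 11 (median 3.26). The summed level of these other domain miRNAs was 153 and 166 CPM in the controls and 1978 and 1534 CPM in TAA 1 and TAA 2, again with TAA 1 the higher. No difference between these lists and the Mirg-side members was tested.

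**Figure D5:**
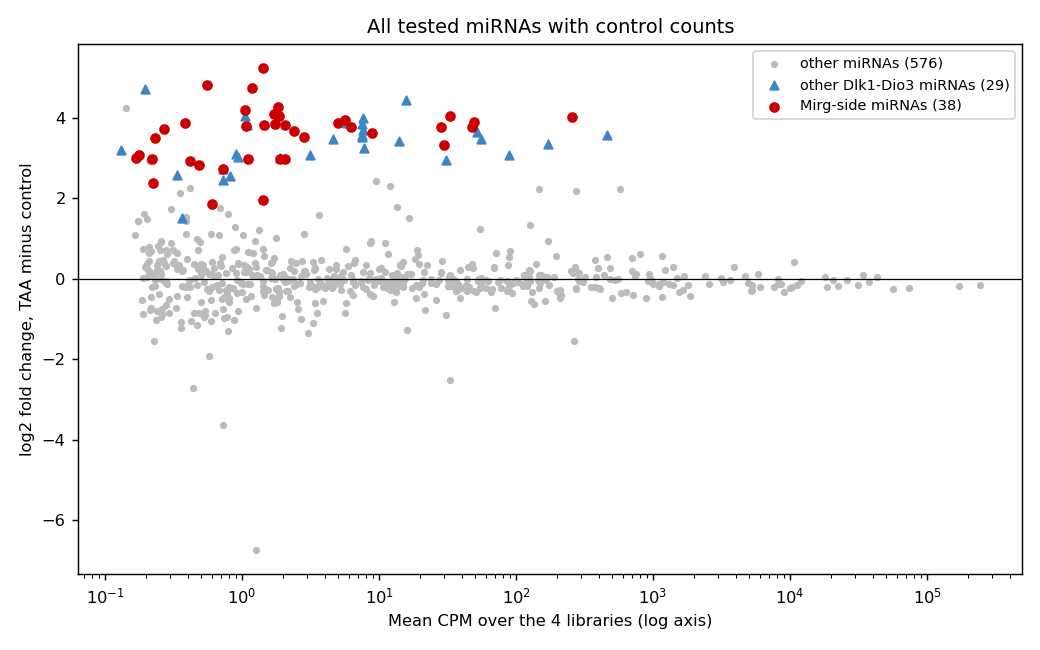
Log2 fold change (TAA minus control) against mean CPM over the 4 libraries (log axis) for the tested miRNAs with control counts: 38 Mirg-side members (red), 29 other Dlk1-Dio3 miRNAs (blue triangles) and 576 others (grey). The members lie between 1.87 and 5.24, while the median over all tested miRNAs is -0.0042. Most of the 38 needed a TAA library to pass the filter, so their range is no support. The 14 members with at least 10 counts in both controls lie between 1.96 and 4.05.

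Some markers of other cell types moved with the groups or with single libraries, and others did not. Of 2 endothelial miRNAs 0 passed, and the sums overlapped (25346 and 29185 CPM in the controls against 26409 and 22655 CPM). Of 5 leukocyte miRNAs 2 rose, and their summed level was 874 and 1384 CPM in the controls and 1850 and 1628 CPM in TAA 1 and TAA 2. All 4 erythroid miRNAs rose, with sums of 325 and 196 CPM in the controls and 530 and 1926 CPM in TAA 1 and TAA 2, so that TAA 2 was highest for these and TAA 1 for the Mirg-side members. Of 5 mesenchymal miRNAs 1 rose, miR-214-3p, and the groups overlapped in the sum (27759 and 28077 CPM against 31605 and 23348 CPM), most of which was miR-143-3p. miR-199a-3p, a miRNA of stellate cells, was at 641 and 523 CPM in the controls and 947 and 714 CPM in the TAA libraries. It was higher in both TAA libraries and did not pass (edgeR adjusted p = 0.0842). The other arm, miR-199a-5p, overlapped between the groups, at 476 and 404 CPM in the controls against 592 and 461 CPM. miR-143-3p and miR-145a-5p had log2 fold changes of -0.04 and -0.41 and did not pass either. The part of these cell types in the rise of the members was not tested. Neural miRNAs, of a tissue where the cluster is abundant, were at 20.9 and 23.6 CPM in the controls and 19.7 and 16.9 CPM in the TAA libraries, with 0 of 4 tested passing and miR-124-3p at 0 to 5 counts. The pancreas markers stood at 111 CPM in control 1 against 8.51 to 10.6 CPM in the other libraries, and their part in the control values of the members was not tested.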

How the data were processed

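The authors deposited unnormalized read counts for each mature miRNA, in a separate file for each library, for 2 control and 2 TAA-treated livers. Bowtie, HTSeq and the mm10 build are named in the submitters' processing notes. Their versions, read trimming, mismatch settings and the handling of reads with several matches are not given there or in the labels. The HTSeq row for multiply aligned reads is 0 in each file. HTSeq's summary rows stayed out of library sizes and tests; reads outside annotated miRNAs were 22.8% to 26.4% of all reads, and unaligned reads 7.11% to 8.49%. Files were joined by miRNA name.

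The filter was filterByExpr, followed by TMM factors and the quasi-likelihood F test of edgeR 4.0.16 (R 4.3.3) on 644 miRNAs. Arm ratios were tested with limma 3.58.1 as log2 ratios of 5p to 3p counts, 0.5 being added to each. SE is the log2 fold change divided by the square root of F. Both procedures were tested on simulated data. For the arm ratios the simulated counts were higher than the control counts of the rarer member arms. The simulation therefore does not show how well changes in those arms would be found. Alternatives included DESeq2 1.42.0 and limma-voom.

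The members and lists were chosen with earlier results of these data known. Members named with full values were the 5 most abundant, the 5 largest and 5 smallest changes at 10 CPM or more, and those that did not pass.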

Additional observations from a re-analysis of the deposited data

How the results depend on the processing

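Every tested member had a positive log2 fold change in all fits. Members that rose numbered 33 with DESeq2, 38 with limma-voom and 35 to 39 in the other fits with all libraries and the same filter, and 0 fell. A minimum of 1 CPM in 2 libraries left 26 members, all of which rose. Leaving out a library gave 22 (without TAA 1) to 36 members that rose and a median log2 fold change between 3.54 and 4.14. Without TAA 1, 14 of the 36 were lost and without TAA 2, 12. With 1 library left in a group, that library is assumed to vary like the others. The 9 members of at least 10 CPM passed in all 15 alternatives. Upper-quartile factors moved the median of all miRNAs to -0.17 and library size alone to 0.12. Member hairpins with a changed arm ratio numbered 0 to 4 when a library was left out. The replicate numbers share only a number: same-numbered libraries deviated with a correlation of -0.13, and with the replicate block 35 members rose. Crossing the numbers, added once the data had been seen, gave 37. Depth limits the 27 untested members.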
